A study of Homo sapiens with 9 samples.

Results

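The 34 genes described here make cholesterol, carry it into and out of the cell, or make fatty acids under the same factors. They were chosen by symbol from a fixed list, which was drawn up with earlier results of these data known. All 34 were found among the 62710 gene identifiers of the count table. Of these, 33 passed the filter on low counts and were tested; NPC1L1 did not. By role, the genes were 8 of the early mevalonate steps, 11 of the squalene and sterol steps, 5 of the SREBP factors and their control, 4 of uptake and movement in the cell, 2 efflux pumps and 4 of fatty acid synthesis. RNA was measured in HT-29 cells, a human colorectal adenocarcinoma line of wild-type (WT) genotype, in 3 libraries per group. Cells were left without stimulation, or received 500 ng/mL ADP-heptose or 500 ng/mL flagellin for 2.5 h. ADP-heptose is a bacterial sugar nucleotide that activates the kinase ALPK1, and flagellin is the protein of the bacterial flagellum, sensed by TLR5. The comparisons ask what each stimulus did to these genes, and whether the stimuli differed. All 3 groups came from 1 cell line, and each stimulus was given at 1 dose and 1 time.

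Cells build cholesterol from acetyl-CoA. The early enzymes lead through mevalonate to isoprenoid units, which are also used for protein prenylation, and the later enzymes join these units to squalene and shape the sterol ring. When membranes of the endoplasmic reticulum run low in sterol, SCAP carries the SREBP factors to the Golgi, where proteases free their active part; INSIG1 and INSIG2 hold SCAP back when sterol is plentiful. SREBF2 mainly drives sterol genes and SREBF1 mainly fatty acid genes. The liver X receptors sense oxysterols and induce the pumps ABCA1 and ABCG1, as well as SREBF1 and MYLIP, a ubiquitin ligase that marks lipoprotein receptors for degradation.

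Depth ranged from 35,040,844 to 37,537,705 counts per library in non-stimulated cells, from 30,770,448 to 38,304,035 with flagellin and from 50,054,773 to 58,272,772 with ADP-heptose. Values below are normalized counts, that is, counts scaled to a common library of 40,298,595 counts. The study describes its sequenced samples as coming from independent experiments, which the labels do not state, and p-values measure the spread between these libraries. Epithelial markers such as EPCAM, KRT8 and VIL1 were abundant, whereas CDX2 had group means of only 24.0 to 45.8. Markers of leukocytes, endothelium and hepatocytes had raw counts of 0 to 13, and of the fibroblast markers COL1A2 and DCN were at 0 while COL1A1 had 437 to 1019. ADP-heptose replicate 3 stood apart from its group. Over 11821 genes the SD of its log2 difference from the other ADP-heptose libraries was 0.374 and 0.38, against 0.126 between those and 0.161 to 0.193 within the other groups. Its departure from the group mean was correlated with log2 exon length across genes (r = -0.49 over 11677 genes, which share 1 library and are no replicates; -0.53 over the 33 members). The genes that passed the threshold after ADP-heptose are therefore given with and without this library. Offsets for length and GC content left HMGCS1 at a log2 fold change of 0.76 and ABCA1 at -1.30 against non-stimulated cells, and with them 7 members were higher (21.2%, against 7.93% of all genes) and 2 lower (6.06%, against 8.74%).

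Sites that the binding of known regulators would use were searched in the promoters of the genes, from 250 bases before to 50 after the start site given by RefSeq (GRCh38.p14). Promoters matched 29 of the 34 genes; ACAT2, FDFT1, SQLE, ABCG1 and FASN were not matched, and 1 start site, the first listed, was used per gene. The following sites are shown because they lie before the RefSeq starts of HMGCS1, MVK and MVD, which rose, of ABCA1, which fell, and of SREBF2, the factor of the sterol genes. Each stretch reads 5′ to 3′ on the strand of the gene, and capitals mark the match.
HMGCS1 NF-Y box: ctaccggccgcgATTGGctgtgggagccac
HMGCS1 NF-kB-type motif: ccagccacgaGGGAAAATCCtagcgagtca
MVK NF-Y box: tcgcgcgctctgATTGGctggcctgaagta
MVD NF-Y box: ggctcgcacgggCCAATcctgtggtagcgc
SREBF2 SREBP motif: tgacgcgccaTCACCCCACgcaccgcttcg
ABCA1 direct repeat: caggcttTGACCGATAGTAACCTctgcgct
The HMGCS1 stretches are chr5:43313495-43313524 and chr5:43313588-43313617 (minus strand), and their matches begin at positions -100 and -195 from the start. The MVK stretch is chr12:109573736-109573765 (plus strand), with its match at -46 to -42, and that of MVD is chr16:88663159-88663188 (minus strand), with its match at -85 to -81. The SREBF2 stretch is chr22:41832962-41832991 (plus strand) and that of ABCA1 is chr9:104928202-104928231 (minus strand). By the outer bounds of the genes in GENCODE 29, the MVK and ABCA1 stretches lie inside the gene and the NF-Y stretches of HMGCS1 and MVD cross its 5′ end, so their place before a start holds for the RefSeq starts.

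The NF-Y box, CCAAT on either strand, was in 19 of the 29 promoters (65.5%), against 36.6% of the 11264 promoters of genes tested. NF-Y is a general factor that binds beside SREBP at many sterol genes. The SREBP motif TCACNCCAC was in 1 promoter (3.45%, SREBF2 itself), against 1.09%. The liver X receptors bind direct repeats of AGGTCA with 4 bases between the repeats; allowing 2 mismatches, 1 promoter held such a repeat (ABCA1, positions -69 to -54 from the start), against 1.66%. A loose NF-kB-type motif, GGGA and CC with 4 bases between them, was in 16 promoters (55.2%), against 31.2%. HMGCS1 and MVK each had 3 matches before their starts, of which 2 in MVK overlap, whereas IDI1 and MVD, which also rose, had none there. SREBF1, which rose as well, had a match at -65 to -56. Matches before the start were also present in genes that did not pass, such as FDPS, GGPS1, LSS and SCD. GC boxes (GGGCGG) were in 26 promoters (89.7%), against 68.7%, and E-boxes (CACGTG) in 5 (17.2%), against 9.93%. GC boxes and the NF-kB-type motif are both rich in G and C, and the base composition of the promoters was not matched in these shares. These letters are matches only and say nothing of whether a factor was bound.

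In non-stimulated cells the level per length (RPKM, counts scaled to exon length and library size) spanned several orders of magnitude. SCD, the desaturase that makes oleate, had the highest level at 205 ± 8.47 RPKM (SD, n = 3). It was followed by the squalene synthase FDFT1 at 110.5 ± 4.26, the squalene epoxidase SQLE at 94.7 ± 0.398 and DHCR7, the reductase of the final step, at 73.7 ± 3.15. The levels of these 4 genes were each apart from the next by more than their SDs. The factor SREBF2 was at 40.0 ± 1.5 RPKM and SREBF1 at 14.3 ± 0.416. The pumps were low, with 0.888 ± 0.10 RPKM for ABCG1 and 0.657 ± 0.0512 for ABCA1. NPC1L1, the intestinal sterol importer, was near background in every library, with raw counts of 0 to 11. Of the lanosterol demethylase CYP51A1 (2.63 ± 0.0855 RPKM), 79.4% of the exon bases are shared with another gene on the same strand, so its level is uncertain. In all, 15 of the 34 genes share exon bases with another gene, and strand use in counting is not stated. Pseudogenes named after members had mean raw counts of at most 23.3.

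**Figure D1:**
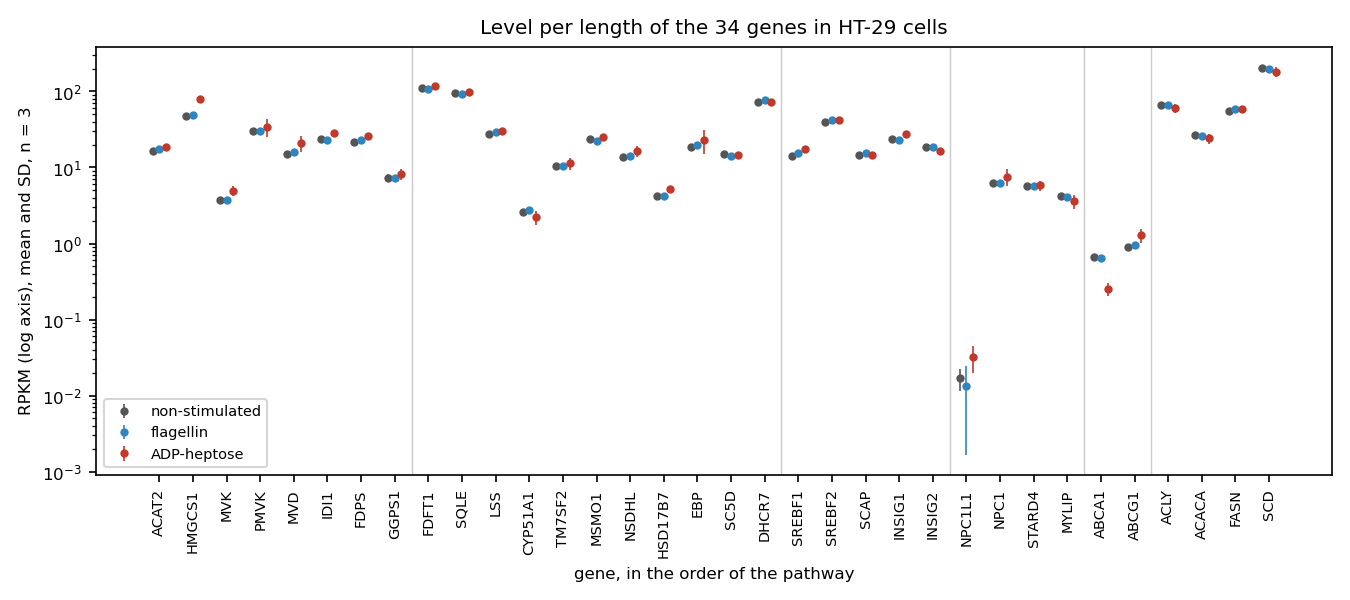
Level of the 34 genes in RPKM (log axis) in pathway order, as the mean and SD of 3 libraries for non-stimulated (grey), flagellin (blue) and ADP-heptose (red) cells; thin lines part the role groups. SCD and FDFT1 were highest, ABCA1 and ABCG1 were the lowest of the genes tested, and NPC1L1 lay below them.

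ADP-heptose raised 6 of the 33 tested genes and lowered 1 (edgeR quasi-likelihood test, adjusted p below 0.05 over 17412 genes). The genes that rose were HMGCS1, MVK, MVD, IDI1, SREBF1 and ABCG1, and the gene that fell was ABCA1. The share that rose was 18.2%, against 7.48% of all genes tested, and the share that fell was 3.03%, against 4.42%. All 33 had a mean normalized count of at least 100, as did 11821 of the 17412 genes. These shares therefore compare genes of unlike abundance, and shares at matched counts were not computed. None rose by 2-fold; ABCA1 fell by more than 2-fold, as did 0.471% of all genes. Every ADP-heptose library lay above every non-stimulated one for 10 genes (15.4% of all genes did so) and below for 2 (14.7%), and the groups overlapped for 21. The median log2 fold change was 0.10 over the 33 genes and 0.01 over all genes. Of the 33, 23 were positive and 10 negative, while 51.1% of all genes were positive. At an unadjusted p below 0.05 there were 12 of the 33 genes and 4334 of all 17412.

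**Figure D2:**
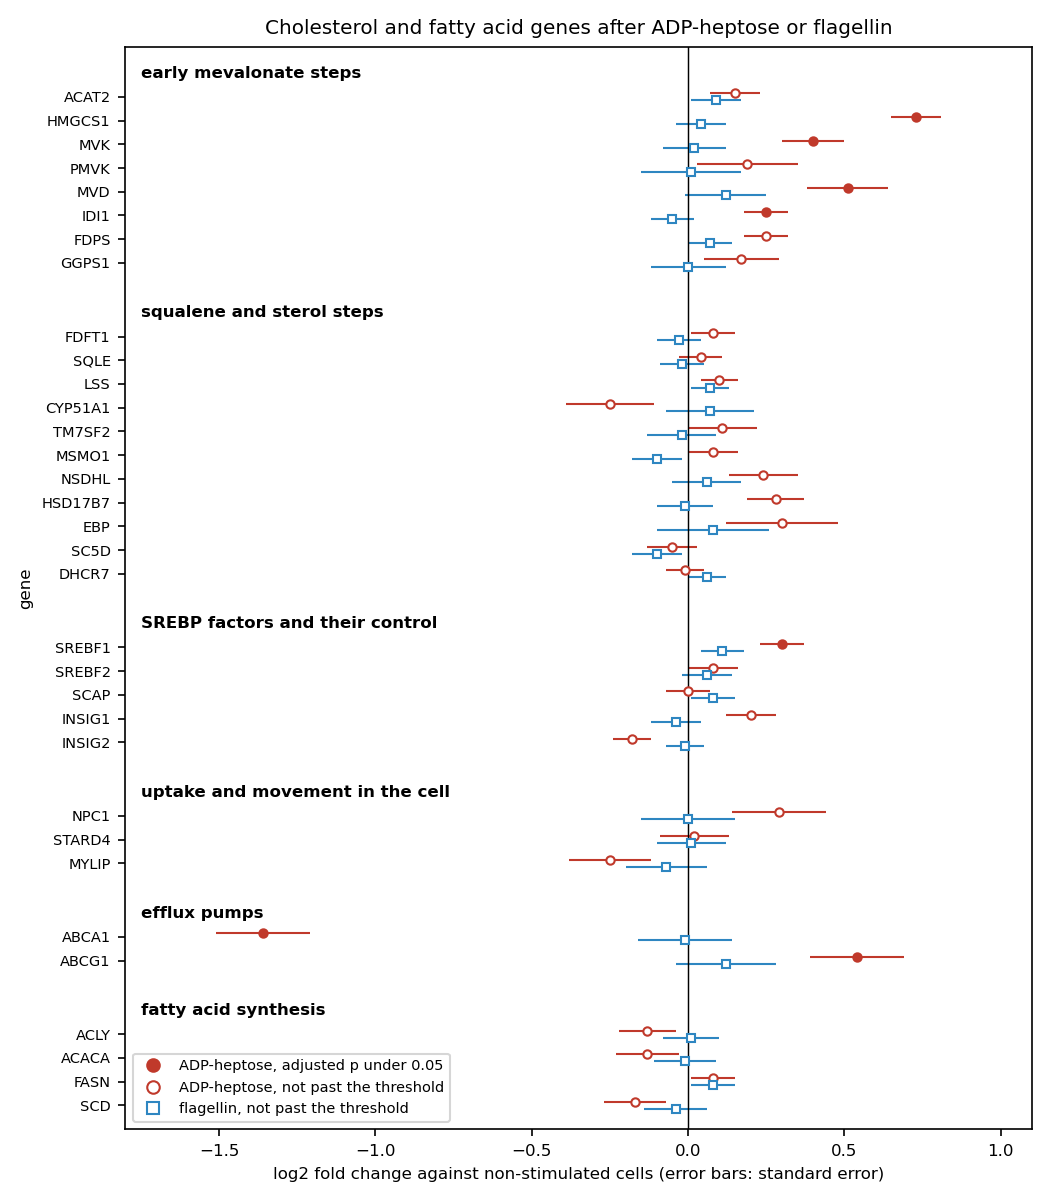
Log2 fold change (x axis) of the 33 tested genes, grouped by role, for ADP-heptose (red circles) and flagellin (blue squares) against non-stimulated cells, with standard errors; filled symbols passed adjusted p below 0.05. Filled symbols are 4 early mevalonate genes, SREBF1 and both pumps after ADP-heptose, and no gene after flagellin, whose values lie between -0.10 and 0.12.

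All 8 early mevalonate genes had a positive estimate (median log2 fold change 0.25), as did 51.1% of all genes. Of the 8, 4 rose: HMGCS1, MVK, MVD and IDI1. The exception in sign among the alternatives was PMVK, with 0.19 from 3 libraries, -0.05 without ADP-heptose replicate 3 and -0.10 with offsets for length and GC content. ACAT2 (0.15 ± 0.08) shares 33.9% of its exon bases with SOD2-OT1 and 26.5% with SOD2, both on the opposite strand. GGPS1 (0.17 ± 0.12) shares 37.3% with TBCE on the same strand, so both estimates are uncertain.

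HMGCS1 (ENSG00000112972, chr5:43289395-43313512, minus strand), the synthase that makes HMG-CoA, rose the most. Its normalized counts were 9279, 9132 and 8941 in non-stimulated cells and 15944, 16069 and 13242 with ADP-heptose. The groups were far apart, and the lowest ADP-heptose value was that of replicate 3. The log2 fold change was 0.73 ± 0.08 (SE, n = 3 against 3; a 1.65-fold rise; edgeR adjusted p = 5.38e-05), and 0.82 ± 0.04 without replicate 3. The call held in 14 of 14 alternative analyses, with log2 fold changes of 0.60 to 0.82 and adjusted p of 3.64e-16 to 0.00143. An antisense gene shares 15% of the HMGCS1 exon bases. No counts were found for it, which does not tell a silent gene from one that was not listed.

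MVK, the mevalonate kinase, had 959, 1006 and 970 normalized counts in non-stimulated cells and 1126, 1263 and 1486 with ADP-heptose. The groups did not overlap, and the ADP-heptose libraries were spread more widely than the others. Its log2 fold change was 0.40 ± 0.10 (edgeR adjusted p = 0.0187) and 0.29 ± 0.07 without ADP-heptose replicate 3 (adjusted p = 0.00433). Without non-stimulated replicate 1, 2 or 3 the edgeR adjusted p was 0.0799, 0.0513 and 0.0758 in turn, and with library totals it was 0.0586 (log2 fold change 0.26). The call held in 9 of 14 alternatives. MVK shares 4.7% of its exon bases with MMAB, on the opposite strand.

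MVD, the decarboxylase that yields isopentenyl diphosphate, had 2793, 3020 and 2662 normalized counts in non-stimulated cells and 3450, 3491 and 5129 with ADP-heptose. Replicate 3 was much the highest, and the groups did not overlap. The log2 fold change of 0.51 ± 0.13 (edgeR adjusted p = 0.028) became 0.30 ± 0.06 without that library (adjusted p = 0.000239), a smaller rise with a smaller error. Without non-stimulated replicate 1, 2 or 3 the edgeR adjusted p was 0.102, 0.0567 and 0.118, and the call held in 8 of 14 alternatives.

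IDI1, the isomerase of isopentenyl diphosphate, had 3979, 4304 and 4186 normalized counts in non-stimulated cells and 4845, 4786 and 5182 with ADP-heptose. All ADP-heptose libraries were higher, by less than in the genes above. By edgeR it rose by 0.25 ± 0.07 on the log2 scale (adjusted p = 0.0289) and 0.22 ± 0.05 without ADP-heptose replicate 3 (adjusted p = 0.00165). Leaving out ADP-heptose replicate 1 gave an edgeR adjusted p of 0.0593, and leaving out non-stimulated replicate 1, 2 or 3 gave 0.143, 0.0572 and 0.0985. The call held in 6 of 14 alternatives, and library totals gave 0.11 on the log2 scale (adjusted p = 0.249). FDPS, which makes farnesyl diphosphate, had the same log2 fold change of 0.25 ± 0.07 and fell just outside the threshold (edgeR adjusted p = 0.0525), and passed it without ADP-heptose replicate 3 (0.18 ± 0.05, adjusted p = 0.0124).

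**Figure D3:**
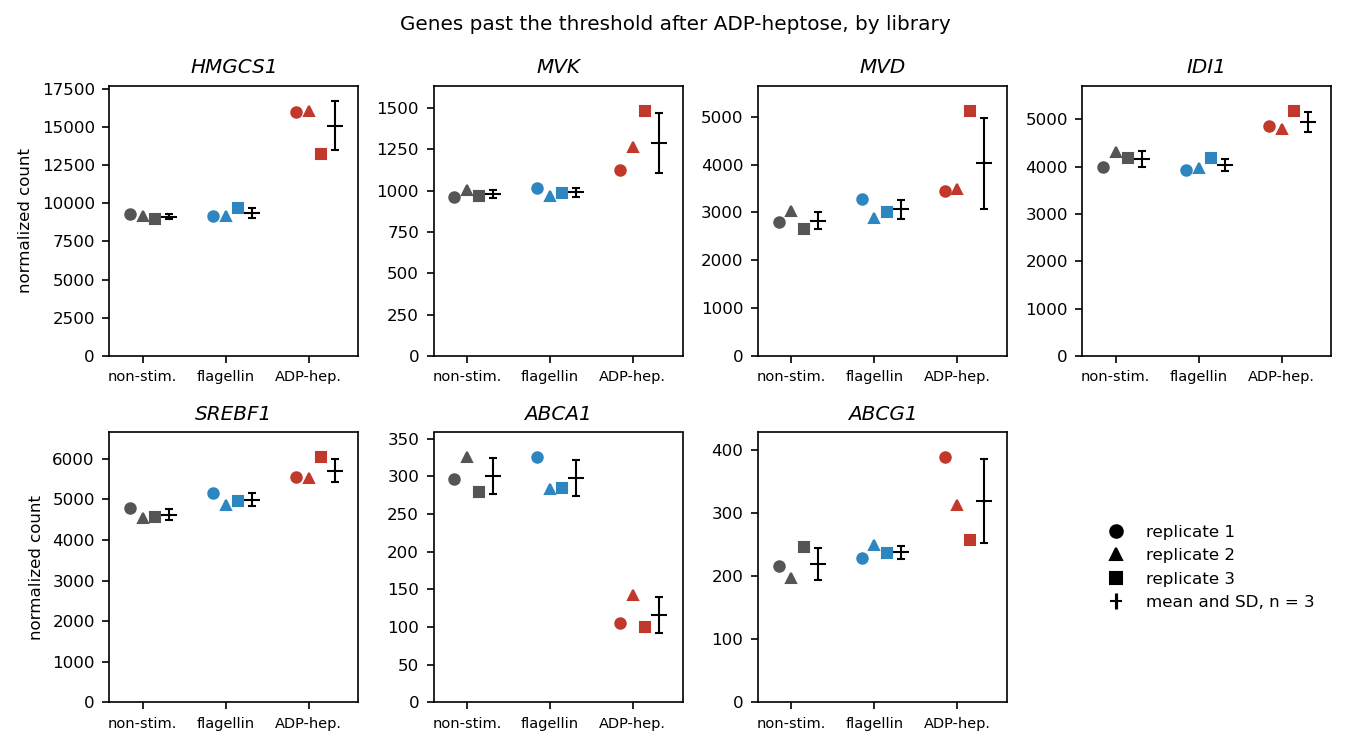
Normalized counts (y axes start at 0) of the 7 genes past the threshold after ADP-heptose, by group and library; the symbol shape gives the replicate, and black bars the mean and SD of 3 libraries. The ADP-heptose libraries lie apart from the non-stimulated ones in every panel, above them except for ABCA1, and replicate 3 (squares) is the highest for MVK, MVD, IDI1 and SREBF1 and the lowest for HMGCS1, ABCA1 and ABCG1.

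None of the 11 genes of the squalene and sterol steps passed the threshold in the main analysis. Their log2 fold changes ran from -0.25 (CYP51A1) to 0.30 (EBP), with a median of 0.08 and a smallest adjusted p of 0.0742, that of the keto-reductase HSD17B7. HSD17B7 had 830, 819 and 820 normalized counts in non-stimulated cells and 987, 939 and 1066 with ADP-heptose, without overlap. Its log2 fold change was 0.28 ± 0.09. Among the alternatives, HSD17B7 passed as higher with length and GC offsets, and EBP with no filter on low counts. Against flagellin, HSD17B7 passed with these offsets, without ADP-heptose replicate 3 and without flagellin replicate 3. EBP, the sterol isomerase, had 1808, 1913 and 1704 against 1670, 1936 and 3099, so that its estimate of 0.30 ± 0.18 rested on replicate 3 and was 0.00 ± 0.07 without it. The abundant enzymes FDFT1, SQLE and DHCR7 had log2 fold changes of 0.08, 0.04 and -0.01, and the 95% interval of SQLE ran from -0.11 to 0.18.

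Among the SREBP factors and their control, SREBF1 rose. It had 4782, 4535 and 4565 normalized counts in non-stimulated cells, 5166, 4863 and 4956 with flagellin and 5543, 5538 and 6043 with ADP-heptose. All ADP-heptose libraries were the highest, and the flagellin libraries lay between the other groups. The log2 fold change after ADP-heptose was 0.30 ± 0.07 (edgeR adjusted p = 0.00918) and 0.26 ± 0.05 without replicate 3 (adjusted p = 8.46e-05). The call held in 12 of 14 alternatives. It was lost without non-stimulated replicate 3 (edgeR adjusted p = 0.0528) and with library totals (0.17, adjusted p = 0.0866), and with length and GC offsets the value was 0.18 (adjusted p = 0.0195). RAI1, on the opposite strand, shares 6.9% of the SREBF1 exon bases, and its log2 fold change was -0.11 (adjusted p = 0.353).

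SREBF2 and SCAP had log2 fold changes of 0.08 and 0.00. The retention factors had opposite signs: INSIG1, itself a target of SREBP, had 0.20 ± 0.08 (edgeR adjusted p = 0.143) and INSIG2 had -0.18 ± 0.06 (adjusted p = 0.087). INSIG2 had 2952, 3013 and 2899 normalized counts in non-stimulated cells and 2568, 2596 and 2648 with ADP-heptose, a small shift with little spread. Without ADP-heptose replicate 3 SREBF2 (0.17, adjusted p = 0.00746), INSIG1 (0.25, adjusted p = 0.00121) and INSIG2 (-0.19, adjusted p = 0.0101) passed the edgeR threshold.

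Of the genes of uptake and movement, the 3 tested did not pass the threshold. NPC1, which exports cholesterol from lysosomes, had 2615, 2308 and 2649 normalized counts in non-stimulated cells and 3620, 3416 and 2195 with ADP-heptose. Replicates 1 and 2 were above and replicate 3 below every non-stimulated library. The log2 fold change was 0.29 ± 0.15 (edgeR adjusted p = 0.253), and 0.48 ± 0.06 without replicate 3 (adjusted p = 9.58e-08). MYLIP had a log2 fold change of -0.25 ± 0.13 and the sterol carrier STARD4 one of 0.02 ± 0.11.

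The efflux pumps changed in opposite directions. ABCA1 (ENSG00000165029, chr9:104781002-104928237, minus strand), which loads cholesterol onto lipid-poor apolipoprotein, had 297, 325 and 279 normalized counts in non-stimulated cells, 326, 284 and 285 with flagellin and 106, 143 and 100 with ADP-heptose. The ADP-heptose libraries were far below all others. On the log2 scale the fold change was -1.36 ± 0.15 (a 2.57-fold fall; edgeR adjusted p = 5.77e-05), and -1.26 ± 0.15 without ADP-heptose replicate 3. The call held in 14 of 14 alternatives, with log2 fold changes of -1.55 to -1.26 and adjusted p of at most 0.00095. ABCA1 shares no exon bases with another gene.

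ABCG1, which moves cholesterol to lipoprotein particles, had 216, 196 and 245 normalized counts in non-stimulated cells and 388, 312 and 256 with ADP-heptose. Replicate 3 was only just above the highest non-stimulated library. Its log2 fold change was 0.54 ± 0.15 (edgeR adjusted p = 0.0398) and 0.68 ± 0.14 without replicate 3 (adjusted p = 0.000329). Without ADP-heptose replicate 1 or 2 the edgeR adjusted p was 0.144 and 0.0718, and without non-stimulated replicate 1, 2 or 3 it was 0.133, 0.147 and 0.0588. Library totals gave 0.41 (adjusted p = 0.118), and the call held in 6 of 14 alternatives.

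The 4 genes of fatty acid synthesis did not pass the threshold, with log2 fold changes of -0.17 to 0.08 and a median of -0.13. SCD had 45619, 42200 and 45044 normalized counts in non-stimulated cells and 43582, 42526 and 32325 with ADP-heptose, and ACLY, the citrate lyase, 14164, 13211 and 13998 against 13449, 13680 and 10582. In both, replicate 3 alone was low, and without it the log2 fold changes were -0.04 ± 0.04 and -0.02 ± 0.04.

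**Figure D4:**
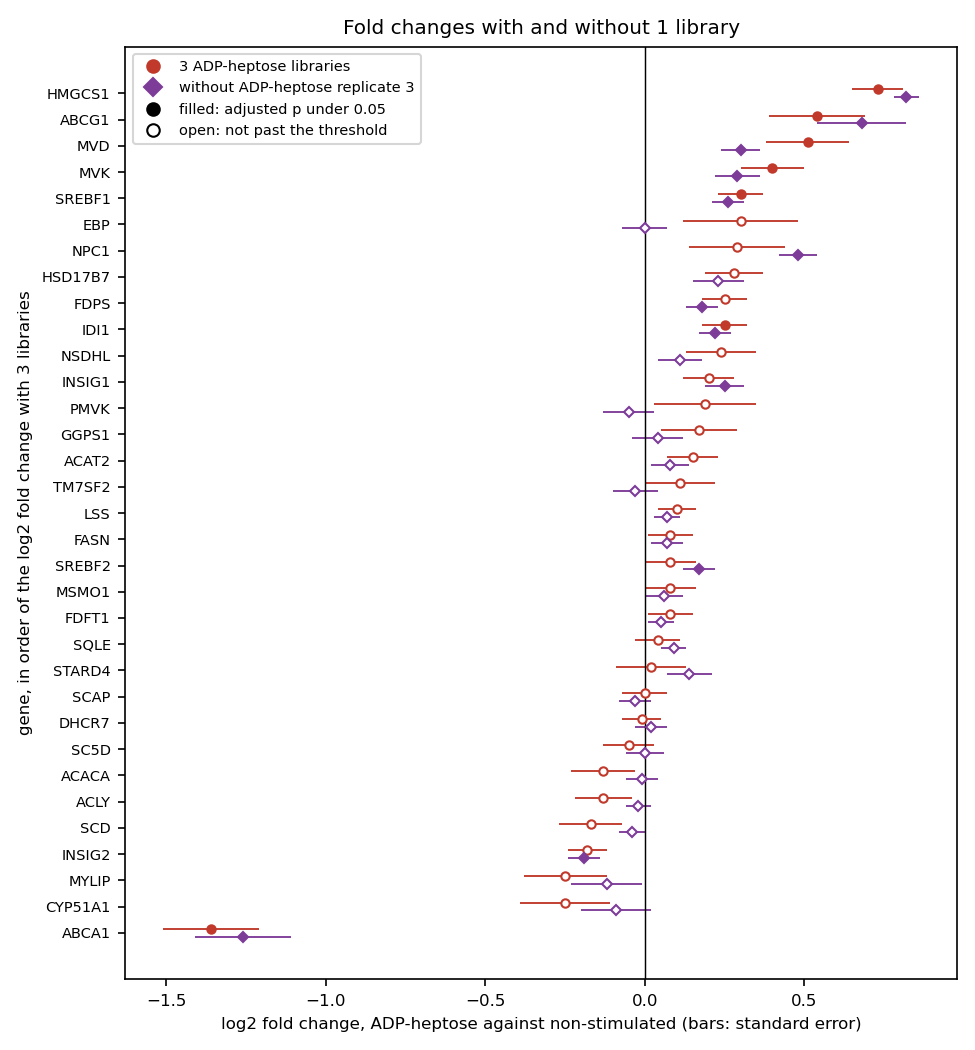
Log2 fold change after ADP-heptose of the 33 tested genes, ordered by their value with 3 libraries, from the fit of 3 ADP-heptose libraries (red circles) and without ADP-heptose replicate 3 (purple diamonds), with standard errors; filled symbols passed adjusted p below 0.05. HMGCS1 and ABCA1 lie at the ends in both, SCD and ACLY move close to 0, and 12 diamonds are filled against 7 circles.

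Without ADP-heptose replicate 3, 10 genes rose (30.3% of the 33, against 11.2% of all genes) and 2 fell (6.06%, against 7.07%). The 10 were the 6 above with FDPS, SREBF2, INSIG1 and NPC1, and the 2 were ABCA1 and INSIG2. The share that rose was above that of all genes in 12 of 14 alternatives and below it in the other two, library totals (3.03% against 5.27%) and the fit without non-stimulated replicate 3 (3.03% against 5.15%). It was close to it when only the 6 libraries compared were fitted (6.06% against 5.65%) and without non-stimulated replicate 1 or 2 (6.06% against 5.28% and 5.41%). No test of the list was made.

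With flagellin none of the 33 genes passed the threshold in either direction, against 0.368% of all genes higher and 0.0115% lower. Log2 fold changes ran from -0.10 to 0.12, every edgeR adjusted p was 1, and no gene had an unadjusted p below 0.05, as 659 of all genes did; DESeq2 called none of them either. NFKBIA, a target of NF-kB that was named after its values were seen, rose with flagellin (log2 fold change 0.68, adjusted p = 0.000239) as well as with ADP-heptose (3.94, adjusted p = 3.74e-12). For HMGCS1 the 95% interval of the flagellin effect ran from -0.14 to 0.21. For ABCA1 it ran from -0.33 to 0.31 and for ABCG1 from -0.23 to 0.46. These intervals and p-values use the spread of all 9 libraries, ADP-heptose replicate 3 included. With only the 6 libraries compared, the standard error fell from 0.08 to 0.04 for HMGCS1 and from 0.15 to 0.12 for ABCA1. Still no member passed, against 0.835% of all genes higher and 0.0179% lower. SREBF1 alone had all flagellin libraries above the non-stimulated ones, as 7.66% of all genes had, with a log2 fold change of 0.11 ± 0.07.

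The stimuli were also compared with each other. HMGCS1 (log2 fold change 0.69 ± 0.08, adjusted p = 0.000114), MVK (0.38 ± 0.10, adjusted p = 0.0301) and IDI1 (0.29 ± 0.07, adjusted p = 0.0149) were higher after ADP-heptose than after flagellin by the edgeR test, 9.09% of the genes against 5.4% of all genes. ABCA1 was lower (-1.35 ± 0.15, adjusted p = 8.83e-05), as were 2.76% of all genes, and 0.287% by at least 2-fold. MVD, SREBF1 and ABCG1 did not pass this comparison (edgeR adjusted p of 0.107, 0.105 and 0.128), so a difference between the stimuli was not shown for them. Every ADP-heptose library was above every flagellin library for 10 genes (14.2% of all genes) and below for 3 (12.8%). The MVK call was lost without flagellin replicate 1, 2 or 3 (edgeR adjusted p of 0.0719, 0.11 and 0.098) and that of IDI1 without replicate 1 or 2 (0.0725 and 0.075). MVK was also lost with library totals (edgeR adjusted p = 0.077), with only the 6 libraries compared (0.0964) and with a replicate block (0.0639). IDI1 was also lost with library totals (edgeR adjusted p = 0.105) and with only the 6 libraries compared (0.0593). Without ADP-heptose replicate 3, 9 genes were higher (27.3%, against 1798 of all 17966 genes tested in that fit) and 2 lower (6.06%, against 5.14%), MVD, SREBF1 and ABCG1 among the higher. HMGCS1 then had a log2 fold change of 0.79, MVK one of 0.28, IDI1 one of 0.27 and ABCA1 one of -1.24, and all passed the threshold. Both stimuli were set against the same non-stimulated libraries, so their fold changes are not independent.

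Other genes of the pathway were taken from a list of 32, of which 27 were tested; ABCG5, PLIN2, CH25H, CYP27A1 and CYP7B1 were too low. ADP-heptose raised 3 of the 27 (11.1%, against 7.48% of all genes) and lowered 1 (3.7%, against 4.42%). After flagellin none passed the threshold, and 2 of them (7.41%, against 5.4%) were higher after ADP-heptose than after flagellin. NCEH1, a hydrolase of cholesterol esters, had 2936, 2840 and 3101 normalized counts in non-stimulated cells, 3210, 3300 and 3393 with flagellin and 6511, 6306 and 4654 with ADP-heptose. Its ADP-heptose libraries were far above the rest, by 0.98 ± 0.11 on the log2 scale (edgeR adjusted p = 6.48e-05), and 0.82 ± 0.11 against flagellin (adjusted p = 0.000371). Without ADP-heptose replicate 3, the lowest of them, these values were 1.12 ± 0.05 and 0.97 ± 0.05. NR1H2, the more widely expressed liver X receptor, had 2040, 2150 and 1982 normalized counts in non-stimulated cells, 2233, 2198 and 2026 with flagellin and 2750, 2617 and 3284 with ADP-heptose. Its log2 fold change was 0.49 ± 0.09 against non-stimulated cells (edgeR adjusted p = 0.00353) and 0.42 ± 0.09 against flagellin (adjusted p = 0.0113), which was lost without flagellin replicate 3 (adjusted p = 0.0618). Without ADP-heptose replicate 3, its highest library, the values were 0.39 ± 0.06 and 0.33 ± 0.06, both past the threshold. NR1H3, the other receptor, had a log2 fold change of 0.04 ± 0.13.

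MBTPS2, the intramembrane protease that frees SREBP, fell, with 1082, 1150 and 1083 normalized counts in non-stimulated cells against 919, 928 and 721 with ADP-heptose (log2 fold change -0.37 ± 0.10, edgeR adjusted p = 0.0369). Without ADP-heptose replicate 3 its value was -0.25 ± 0.08 (edgeR adjusted p = 0.0165). The call held in 9 of 14 alternatives and was lost without any 1 of the non-stimulated libraries. SOAT2, which esterifies cholesterol, was barely detected, with raw counts of 3 to 8 in non-stimulated and 18 to 25 in ADP-heptose libraries (log2 fold change 1.73 ± 0.47, edgeR adjusted p = 0.0321), and its call held in only 5 of 14 alternatives. It was lost without ADP-heptose replicate 3 (1.60 ± 0.64, edgeR adjusted p = 0.083). The other genes of esterification and storage, sterol transport, fatty acid synthesis under SREBP and isoprenoid use did not pass the threshold.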

How the data were processed

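Poly(A) RNA of HT-29 cells was sequenced as paired reads in 9 libraries, 3 per group. The authors aligned reads with HISAT2 and assigned them to genes with featureCounts; values in the deposited table are raw counts, 1 column per library. Tool versions, genome build, annotation and strandedness are not given in the sources used here. Dose and time come from the study's methods. Of 62710 distinct identifiers, 232 appeared on several lines, always with the same counts, and were used once; 0 per-sample columns were left unused. Groups follow the treatment label.

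All 9 libraries were fitted together in edgeR 4.0.16 (R 4.3.3; TMM, filterByExpr, robust quasi-likelihood test), with 3 contrasts and Benjamini-Hochberg adjustment over 17412 genes at 0.05. The study's methods name DESeq2 (here 1.42.0), which was an alternative. The square root of the common dispersion was 0.109. Exon lengths, overlaps and positions came from GENCODE 29 (GRCh38). The scripts were tested on simulated data.

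Genes, role groups and lists were chosen with earlier results of these data known. All members could be named, with the value in every library for those past the threshold in a comparison, and other pathway genes where past it. Alternatives changed normalization, test, filter, libraries in the fit, replicate block and each replicate; length and GC offsets were added after earlier results were seen.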

Additional observations from a re-analysis of the deposited data

How the results depend on the processing

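Of 14 alternatives for the comparison of ADP-heptose with non-stimulated cells, none reversed a called gene; HMGCS1 rose and ABCA1 fell in all 14. The main analysis gave 6 genes higher and 1 lower, and against flagellin 3 and 1. Scaling by library totals, which moved the median of all genes to -0.13 and -0.11, gave 1 higher and 2 lower (ABCA1 and INSIG2) in both; against non-stimulated cells these were 3.03% and 6.06% of the members, with 5.27% and 10.8% of all genes, and against flagellin 4.07% and 6.11% of all genes. Fitting only the 6 libraries compared gave 2 and 1 higher (6.06% and 3.03%, with 5.65% and 4.24% of all genes). With no filter on low counts, 5 were higher against flagellin (15.2%, with 4.12% of all genes). Length and GC offsets, chosen after earlier results were seen, gave 2 lower against non-stimulated cells, and 6 higher and 2 lower against flagellin (18.2% and 6.06%, with 6.64% and 5.93% of all genes). Leaving out 1 replicate gave 1 to 10 higher and 1 to 2 lower against non-stimulated cells, and 1 to 9 higher and 1 to 2 lower against flagellin; the highest counts came without ADP-heptose replicate 3, and the lowest without a non-stimulated or a flagellin replicate. No gene passed after flagellin under any alternative.

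Deviations of same-numbered libraries had r of -0.393 to 0.225, with 2 of 9 above 0.1. Those of libraries with different numbers had r of -0.389 to 0.439, with 8 of 18 above 0.1. The extremes of both ranges came from pairs with an ADP-heptose library. Whether libraries of the same number came from the same experiment was not tested. With a replicate block, 3 genes were higher (HMGCS1, MVK and SREBF1) and 1 lower against non-stimulated cells. These were 9.09% and 3.03% of the members, with 6.11% and 3.0% of all genes. Against flagellin 2 were higher and 1 lower (6.06% and 3.03%, with 4.5% and 1.88% of all genes). Raw counts of NPC1L1 (0 to 11) and SOAT2 (3 to 25) were low.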
